A study of Rattus norvegicus with 96 samples.

Results

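The bed nucleus of the stria terminalis (BNST) was profiled in its dorsolateral (dlBNST) and ventral (vBNST) parts, and the data described here are the 8 arrays of these parts from alcohol naive rats. They comprise 4 dlBNST arrays and 4 vBNST arrays out of 96 arrays in the series, which covers 8 brain regions and 3 treatment groups with 4 replicates each. The arrays were set by region and treatment alone, as the sample labels give them, and no measured value entered that rule. This part of the series and the gene lists used below were chosen with earlier results of these data known. The self-administering rats were adult male Wistar rats. Naive rats had no alcohol and were killed at the same age as rats of the other groups. Those other groups are used below as separate animals. Non-dependent rats self-administered 10% alcohol for 4 weeks, and dependent rats also received intermittent alcohol vapor for 4 weeks. In both groups tissue was taken 3 weeks after the vapor period of the dependent rats had ended. Each region of a group has 4 arrays, and several regions were dissected from a rat, but no label ties a dlBNST array to a vBNST array of the same animal. The p-values therefore measure the spread between arrays of a region.

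The BNST is a group of forebrain nuclei of the extended amygdala, and most of its neurons release GABA. Its dorsolateral part contains the oval nucleus, is wired to the central amygdala, and is known for neurons with corticotropin-releasing factor, enkephalin and other peptides that act in stress and anxiety. The ventral part lies below the anterior commissure, borders the preoptic area, receives dense noradrenergic input, and sends both GABA and glutamate projections to the hypothalamus and the ventral tegmental area. A microdissected block holds all cell types of the tissue, so fewer cells of a type and less RNA per cell cannot be told apart.

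Array medians of the log2 values ran from 3.87 to 3.88 in naive dlBNST and from 3.81 to 3.89 in naive vBNST, and the best correlation of an array with any other array of the series was 0.9952 to 0.9958 in dlBNST and 0.9936 to 0.9961 in vBNST. The 3′ minus 5′ difference of the Gapdh control probes, a measure of RNA integrity and amplification, was 1.87, 1.69, 1.79 and 1.94 in dlBNST, against 2.72, 2.40, 2.57 and 2.95 in vBNST. The vBNST arrays thus had the larger Gapdh difference, with no overlap. The same difference of the actin control probes ran the other way and overlapped, at 7.37 to 8.13 in dlBNST and 6.83 to 7.58 in vBNST. The part of either in the results below was not tested. In non-dependent rats the Gapdh difference was 1.41 to 1.93 in dlBNST and 1.76 to 2.07 in vBNST, so the arrays of the regions overlapped there. The RNA template was 30 or 50 ng depending on the region, and such an input difference and the region cannot be told apart. The vBNST array of dependent replicate 1 stood apart, with a Gapdh difference of 5.38 and a best correlation of 0.961. Values of dependent rats are given with and without it.

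A gene is called where limma gave an adjusted p under 0.05, and differences are dlBNST minus vBNST in log2 units. Of 8708 genes tested, 702 (8.06%) were called higher in dlBNST and 743 (8.53%) lower, 1445 in all (16.6%). The difference was beyond 1, a doubling, in 120 higher and 148 lower genes and beyond 2 in 23 of each. The median difference of all tested genes was -0.01. For comparison, 5.98% of tested genes were called between the core and the shell of the nucleus accumbens (NAcC and NAcSh) in naive rats and 35.0% between the central (CeA) and basolateral (BLA) amygdala. Between CeA and the parts of the BNST, the calls were 36.6% for dlBNST and 42.9% for vBNST. In 1330 of the 1445 called genes the 4 arrays of one region lay beyond the 4 of the other, which held for 22.7% of all tested genes. Leaving out dlBNST replicate 1 lowered the calls to 410 higher and 430 lower, and without replicate 3 or 4 of dlBNST 494 and 476 lower calls were left.

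Arpp21, Cyp26b1, Drd1 and Ppp1r1b were among the 12 genes with the largest differences toward dlBNST of those called without overlap between the regions. Arpp21, a phosphoprotein regulated by cAMP, read 11.07, 10.85, 10.91 and 11.11 in dlBNST, against 7.55, 6.15, 6.64 and 6.20 in vBNST. All dlBNST arrays were more than 3 log2 units above the highest vBNST array, and the difference was 4.35 ± 0.27 (SE; adjusted p = 8.95e-06, limma). Cyp26b1, the enzyme that degrades retinoic acid, read 10.85, 10.27, 8.95 and 9.82 in dlBNST and 7.35, 6.31, 4.88 and 5.76 in vBNST, a 14.9-fold difference (adjusted p = 0.000859). Its arrays spread widely within each region, but the regions did not overlap. The dopamine D1 receptor Drd1 read 7.55, 7.12, 7.44 and 7.37 in dlBNST against 4.94, 4.35, 3.70 and 4.43 in vBNST, and was 8.08-fold higher (adjusted p = 3.31e-05). DARPP-32 (Ppp1r1b), the phosphoprotein through which D1 signaling inhibits protein phosphatase 1, read 6.70, 6.11, 6.68 and 6.73 against 4.33, 4.16, 4.09 and 3.52. Every dlBNST array was above every vBNST array, by 2.54 ± 0.19 on average (adjusted p = 3.79e-05). Averaging all probe sets of a gene lowered the difference of Cyp26b1 to 2.20 and of Drd1 to 1.60, both still called, since the other probe set of each was dim in both regions, with a difference of 0.50 for Cyp26b1 and 0.18 for Drd1.

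The thyroid hormone binding protein mu-crystallin (Crym) read 11.17, 10.87, 10.47 and 11.11 in dlBNST and 8.35, 8.06, 8.14 and 7.76 in vBNST, a tight separation of 2.83 ± 0.17 (adjusted p = 9.26e-06). The peptide gene Nmb, coding for neuromedin B, read 7.04, 8.04, 5.67 and 7.76 in dlBNST against 3.99, 4.33, 3.99 and 3.87 in vBNST. Its dlBNST arrays spread over more than 2 units while those of vBNST were uniformly dim, and the difference was 3.08 ± 0.42 (adjusted p = 0.00106). The remaining 6 of the 12 largest were Ankrd63, Chodl, Spata13, Klf5, Itpka and Ephx4. Ankrd63 differed by 3.74. Chodl, a membrane lectin that in mouse marks long-range cortical interneurons, differed by 3.49. Spata13 differed by 3.22, and the zinc finger transcription factor Klf5 by 3.17. Itpka, an inositol trisphosphate kinase of dendritic spines, differed by 2.98 and Ephx4 by 2.77. In vBNST these genes averaged 3.91 and 2.91. Both thus passed the filter, a mean level above 4 over the 8 arrays, through dlBNST, where they were high. Averaged over all their probe sets, Spata13 differed by 1.31 and Klf5 by 1.32, both called. All 12 genes were also called higher in dlBNST in non-dependent rats.

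The largest difference toward vBNST was in Slc17a6, the vesicular glutamate transporter VGLUT2 of subcortical excitatory neurons. It read 4.60, 9.06, 4.56 and 5.21 in dlBNST, against 10.88, 11.15, 11.09 and 10.37 in vBNST. In dlBNST replicate 2 it was more than 3 units above the other dlBNST arrays, yet still below every vBNST array. The difference was -5.01 ± 0.83 (adjusted p = 0.00332, limma) and -6.08 without that array (adjusted p = 1.26e-06). The same dlBNST array was also the highest of its region in Frem3, an extracellular matrix protein, which read 3.47, 5.90, 3.91 and 3.24 in dlBNST and 7.76, 8.22, 8.33 and 8.26 in vBNST. Frem3 differed by -4.01 ± 0.48 (adjusted p = 0.00054), and by -4.60 without replicate 2. The homeobox factor Dlx1, of developing and adult GABA neurons, read 5.96, 7.58, 6.13 and 6.06 in dlBNST against 9.19, 9.99, 10.14 and 9.71 in vBNST, with replicate 2 again the highest dlBNST array. It was 10.0-fold lower in dlBNST (adjusted p = 0.000241). Over the 743 genes called lower, dlBNST replicate 2 lay at a median of 0.135 above the mean of the other dlBNST arrays, and dlBNST replicate 1 at -0.106. Without replicate 2, 546 genes were called higher and 676 lower.

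Ppp1r17, an inhibitor of protein phosphatases known from cerebellar Purkinje cells, read 4.00, 4.27, 3.46 and 4.10 in dlBNST and 7.17, 7.79, 8.16 and 7.55 in vBNST. The difference was -3.71 ± 0.22 (adjusted p = 8.95e-06), with dlBNST in the dim range, at a mean of 3.96, so that the gene passed the filter through vBNST. The sodium channel family member Scn7a, which in other brain sites senses extracellular sodium, differed by -2.30. Its dlBNST mean was 3.29, so it too passed the filter through vBNST. The arginine and lysine transporter Slc7a3 differed by -2.45, the transcription cofactor Zfpm2 by -2.44, Aard by -2.87 and Flywch2 by -2.55. Zfpm2 reached 9.63 in dlBNST replicate 2, against 7.27 to 7.90 in the other dlBNST arrays, and its other 2 probe sets read near 2.2 in both regions. Averaged over their probe sets, Zfpm2 differed by -0.81, Calcr by -1.34 and Flywch2 by -0.99, all called. Oxt, Gal and Calcr, which complete the 12 genes called without overlap, are described with the peptides and their receptors. All 12 were called lower in non-dependent rats as well. In dependent rats without the vBNST array that stood apart, Oxt was not tested. The other genes of the 12 kept their sign there, with Calcr at -1.02 and Zfpm2 at -0.70.

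**Figure D1:**
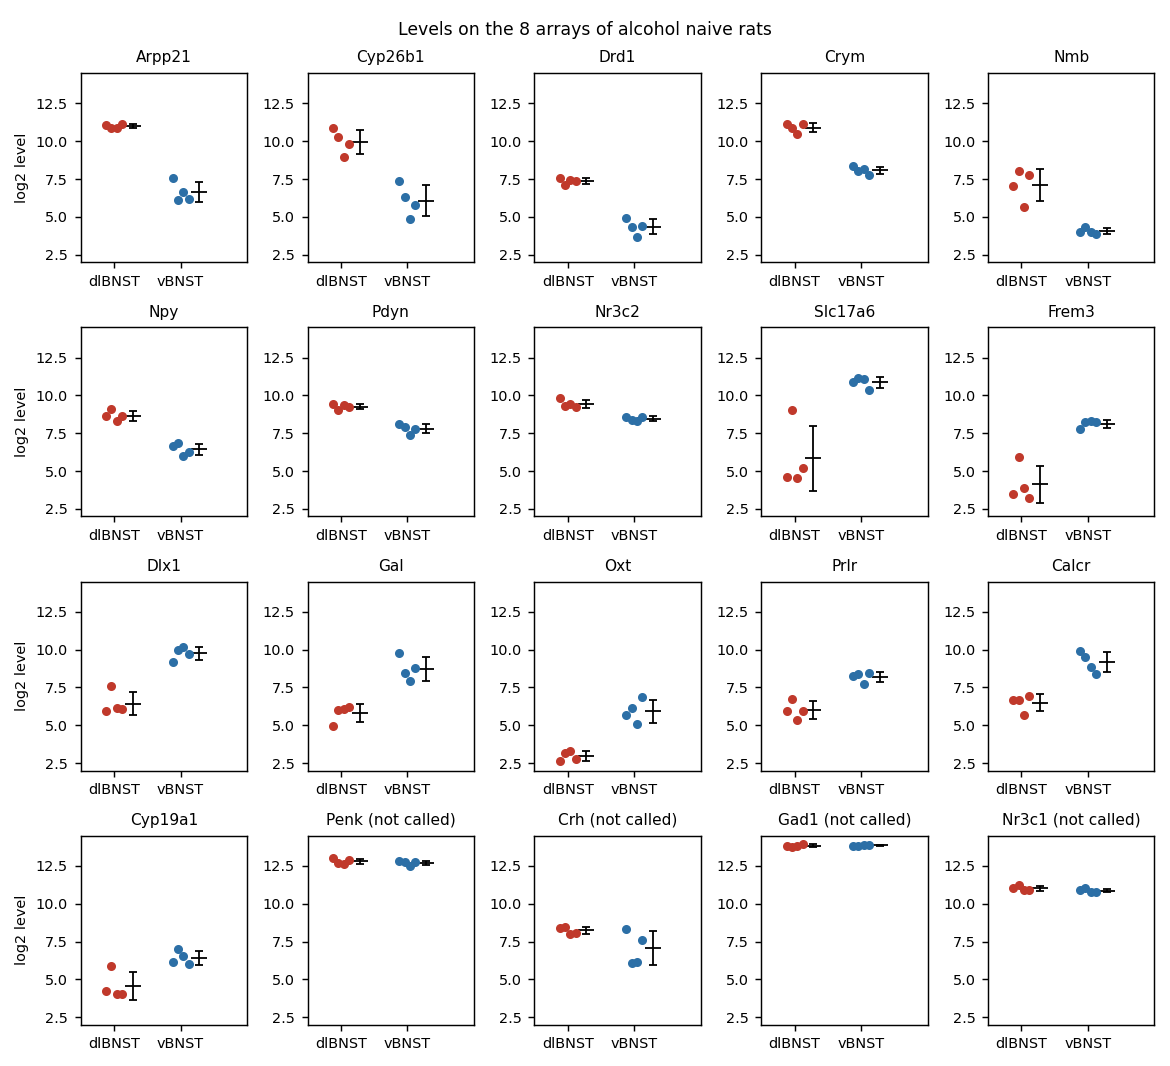
Log2 level (vertical axis) of 20 genes on each array of naive rats, dlBNST in red on the left and vBNST in blue on the right of each panel, with the mean and SD of 4 arrays in black. The regions do not overlap in the first 16 genes, Slc17a6 stands out in dlBNST replicate 2 at 9.06, and Penk, Gad1 and Nr3c1 lie at nearly the same level in both regions.

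Peptide genes differed in both directions. Of 44 neuropeptide and granin genes listed, 39 were on the array and 24 passed the filter on dim genes, a mean log2 level above 4 over the 8 arrays. Among these 24, 5 were called higher in dlBNST and 7 lower, beside 8.06% and 8.53% of all tested genes. Of the 7, Oxt, Adcyap1, Tac1, Calca and Trh averaged under 4 in dlBNST and passed the filter through vBNST, where they were high. Beside Nmb, neuropeptide Y (Npy) read 8.65, 9.09, 8.29 and 8.63 in dlBNST against 6.64, 6.86, 6.02 and 6.25 in vBNST, and was 4.66-fold higher (adjusted p = 0.000133, limma). Prodynorphin (Pdyn), the precursor of the kappa opioid peptides, read 9.46, 9.01, 9.35 and 9.25 against 8.08, 7.93, 7.40 and 7.76. It was 2.78-fold higher with no overlap (adjusted p = 0.000301). Vasoactive intestinal peptide (Vip) was higher by 1.53 ± 0.21 and chromogranin A (Chga) by 0.61. Vip averaged 3.56 in vBNST and passed the filter through dlBNST.

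Several peptides higher in vBNST are known from hypothalamic and preoptic neurons. Galanin (Gal) read 4.95, 5.99, 6.10 and 6.21 in dlBNST, against 9.76, 8.43, 7.92 and 8.79 in vBNST, a 7.51-fold difference (adjusted p = 0.000867). Oxytocin (Oxt) read 2.64, 3.14, 3.31 and 2.76 in dlBNST, against 5.65, 6.11, 5.09 and 6.90 in vBNST. The dlBNST values of Oxt lie in the dim range, where GCRMA compresses differences, and the difference was -2.98 ± 0.32 (adjusted p = 0.000338). The vasopressin gene Avp, which is made by neighboring hypothalamic cells, did not pass the filter and read 2.68 to 2.70 in dlBNST and 2.79 to 3.36 in vBNST. PACAP (Adcyap1) differed by -2.06, substance P precursor (Tac1) by -1.65, Calca, the gene of calcitonin and CGRP, by -1.49, thyrotropin-releasing hormone (Trh) by -1.22 and secretogranin II (Scg2) by -0.45. Adcyap1 overlapped, since dlBNST replicate 2 read 5.07 and the lowest vBNST array 5.04, and it lost its call without dlBNST replicate 1, 3 or 4. Scg2 overlapped too, with 12.90 in both dlBNST replicate 2 and vBNST replicate 4.

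Crh and Penk, peptide genes by which the oval nucleus is often described, overlapped between the regions in the naive rats. Crh, corticotropin-releasing factor, read 8.42, 8.44, 8.02 and 8.08 in dlBNST, against 8.36, 6.07, 6.15 and 7.59 in vBNST. The dlBNST arrays were uniform while vBNST ranged over more than 2 units, and the difference of 1.19 ± 0.44 was not called (adjusted p = 0.091, limma). Without vBNST replicate 1, the array at 8.36, it was 1.63 and called (adjusted p = 0.0124). In non-dependent rats it was 1.08 (adjusted p = 0.19). Proenkephalin (Penk) read 12.63 to 13.01 in dlBNST and 12.53 to 12.84 in vBNST, a difference of 0.09 with a 95% interval of -0.18 to 0.35. Somatostatin (Sst) differed by 0.50 and neurotensin (Nts) by 0.42, and neither was called.

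Receptors for peptides and hormones were lower in dlBNST in 9 of 20 tested genes and higher in 1, out of 51 listed and 43 on the array, beside 8.53% lower and 8.06% higher of all tested genes. Their median difference was -0.58, against -0.01 over all tested genes. The calcitonin receptor Calcr read 6.70, 6.67, 5.66 and 6.91 in dlBNST against 9.90, 9.53, 8.87 and 8.39 in vBNST, and was 6.44-fold lower (adjusted p = 0.000821). A second Calcr probe set read about 2.5 in both regions. The prolactin receptor Prlr read 5.93, 6.76, 5.37 and 5.95 against 8.26, 8.37, 7.72 and 8.46, a difference of -2.20 ± 0.27 (adjusted p = 0.00056). Neither gene overlapped between the regions. The galanin receptor Galr2 read 4.62, 4.89, 4.44 and 4.77 in dlBNST and 6.52, 5.49, 6.57 and 7.12 in vBNST, a difference of -1.74 in the same direction as that of its ligand.

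The somatostatin receptor Sstr1 differed by -1.60, the kappa opioid receptor Oprk1 by -1.33 and the orexin receptor Hcrtr2 by -1.21. Hcrtr2 averaged 3.80 in dlBNST and passed the filter through vBNST. Oprk1 thus differed in the opposite direction to Pdyn, its ligand gene. The neurokinin 1 receptor Tacr1, the natriuretic peptide receptor Npr2 and the neuropeptide Y receptor Npy5r were lower by 0.68 to 0.88. The single receptor called higher was Vipr1, a receptor for VIP and PACAP, with 5.80, 5.46, 5.49 and 5.75 in dlBNST against 3.87, 4.12, 5.08 and 4.38 in vBNST. Of the 9 receptors called lower in naive rats, Prlr, Calcr, Galr2, Sstr1, Oprk1, Hcrtr2, Tacr1, Npr2 and Npy5r, each was called in the same direction in non-dependent rats.

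Steroid-related genes also divided. The list holds 19 genes, of which 17 were on the array and 11 tested. Of these, 3 were called higher in dlBNST and 4 lower, beside 8.06% and 8.53% of all tested genes. The mineralocorticoid receptor Nr3c2, which binds corticosterone with high affinity, read 9.83, 9.32, 9.46 and 9.21 in dlBNST against 8.60, 8.38, 8.30 and 8.59 in vBNST. It was 1.98-fold higher with no overlap (adjusted p = 0.0016, limma). The glucocorticoid receptor Nr3c1 read 10.88 to 11.25 in dlBNST and 10.78 to 11.02 in vBNST, and its difference of 0.15 was not called, with a 95% interval of -0.10 to 0.40. Its target and co-chaperone gene Fkbp5 was higher by 0.57 and the coactivator Ncoa1 by 0.61.

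Aromatase (Cyp19a1), which makes estradiol from testosterone, read 4.24, 5.91, 4.03 and 4.03 in dlBNST, against 6.18, 6.99, 6.52 and 5.99 in vBNST. Replicate 2 was the high dlBNST array, close below the lowest vBNST array, and the difference was -1.87 ± 0.39 (adjusted p = 0.0102) or -2.32 without it. The estrogen-induced gene Greb1 differed by -1.36, and the call was lost without dlBNST replicate 1 or 3 or vBNST replicate 2 or 3 (adjusted p up to 0.0558 in these fits). The orphan nuclear receptors Nr2f2 and Nr2f1, which pattern the caudal forebrain, differed by -1.55 and -0.46. The estrogen receptors Esr1 and Esr2 read between 2.30 and 2.88 on all 8 arrays and were not tested.

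Gad1, Gad2 and Slc32a1, genes of GABA synthesis and vesicular transport, were not called between the regions. The GABA-synthesizing enzyme Gad1 read 13.76 to 13.96 in dlBNST and 13.83 to 13.87 in vBNST, a difference of -0.01 with a 95% interval of -0.21 to 0.19. Gad2 differed by -0.06 and the vesicular GABA transporter Slc32a1 by 0.15, and neither was called. Of 19 tested genes of GABA and glycine signaling, none was called higher and 3 lower, beside 8.06% and 8.53% of all tested genes. The GABA-A subunit Gabra5 was lower by 0.83 and the glycine receptor subunits Glra2 by 0.85 and Glrb by 0.51. Glra2 overlapped at its margin, with 11.71 in dlBNST replicate 2 and 11.70 in vBNST replicate 1, and it lost its call in 3 of the 8 fits that left out an array.

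In glutamate signaling 6 of 25 tested genes were called higher in dlBNST and 2 lower, Slc17a6 and the kainate receptor subunit Grik1. Of all tested genes 8.06% were called higher and 8.53% lower, so the lower calls were near the share of all genes. Grik1 read 5.74, 6.90, 6.08 and 5.95 in dlBNST, against 7.95, 8.33, 7.98 and 8.11 in vBNST (difference -1.93 ± 0.22, adjusted p = 0.00044). The AMPA receptor subunit Gria1 was higher by 1.17 and the metabotropic receptor Grm3 by 1.06. The postsynaptic scaffold genes Homer1, Shank2 and Dlgap1 were higher by 1.02, 0.79 and 0.75, and the NMDA receptor subunit Grin2a by 0.59. Gria1 overlapped, since vBNST replicate 4 read 8.55 and the lowest dlBNST array 8.54.

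Ion channels were called in both directions, with 8 higher and 8 lower of 40 tested, beside 8.06% and 8.53% of all tested genes. The A-type potassium channel Kcna4 read 9.51, 9.14, 9.32 and 9.28 in dlBNST and 8.32, 8.47, 7.99 and 7.93 in vBNST, and the M-current subunit Kcnq5 was higher by 0.90. Averaged over its probe sets, Kcnq5 differed by 0.29 and was not called (adjusted p = 0.0901, limma). Kcnj6, the G protein-gated channel GIRK2, read 6.35, 6.90, 6.58 and 6.41 against 7.74, 7.91, 7.96 and 8.07. It was 2.56-fold lower in dlBNST (adjusted p = 0.000203). A dimmer Kcnj6 probe set, at 4.27 in dlBNST, differed the other way, by 0.28. The fast delayed rectifier Kcnc1 was lower by 1.12 and the sodium channel Scn1a by 1.13, both typical of fast-spiking neurons. The sodium channel subunit Scn4b, abundant in striatum, was higher by 1.83.

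**Figure D2:**
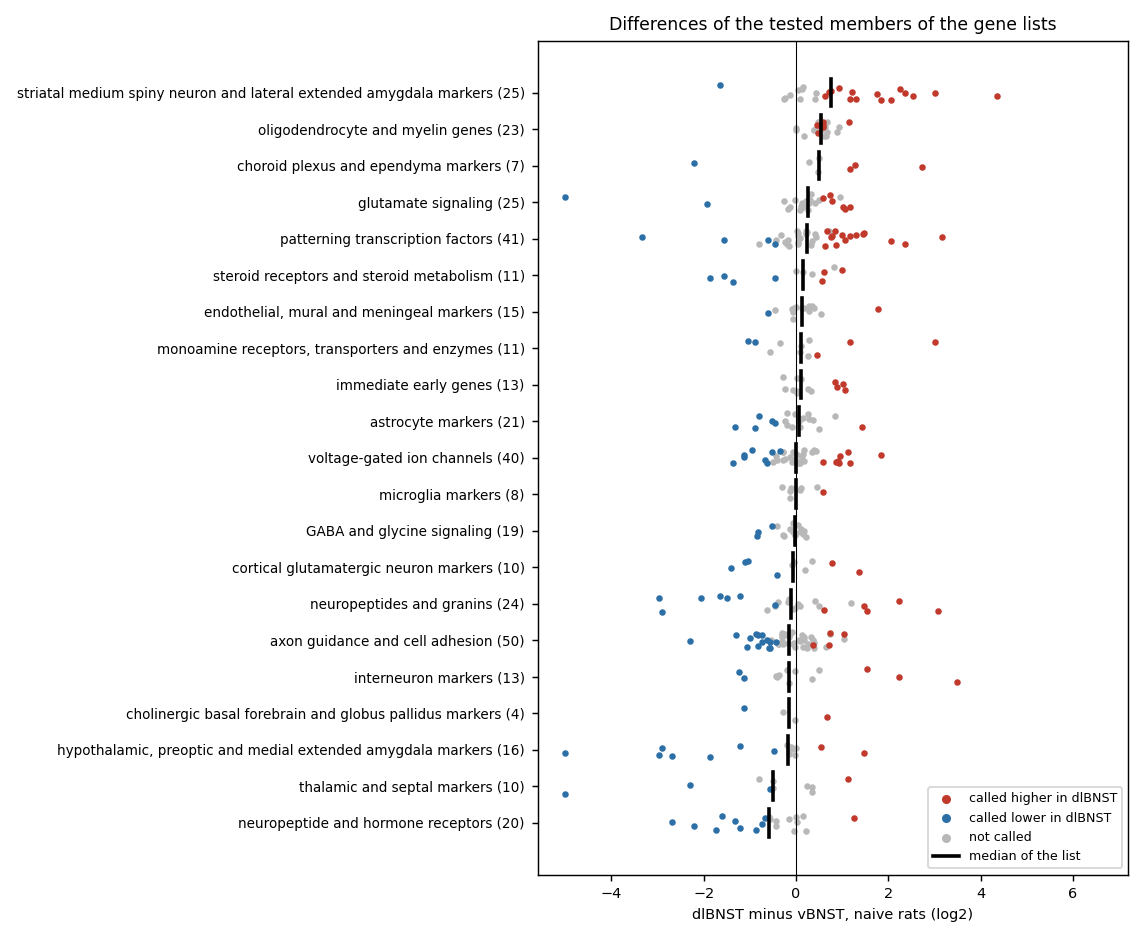
Log2 difference, dlBNST minus vBNST (horizontal axis), of every tested member of 21 gene lists, with the number tested in parentheses. Red points were called higher in dlBNST, blue points lower, grey points were not called, and black bars are medians, which ran from 0.75 for striatal and lateral extended amygdala markers to -0.58 for peptide and hormone receptors. A gene may stand in several lists, as Slc17a6 does in 3.

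Patterning transcription factors, which set regional identity in development and often stay on in adult neurons, were called higher in dlBNST in 15 of 41 tested genes and lower in 4, beside 8.06% and 8.53% of all tested genes. Bcl11b (CTIP2), a factor of striatal projection neurons, read 12.46, 12.18, 12.33 and 12.36 in dlBNST against 10.54, 9.97, 9.35 and 10.00 in vBNST. It was 5.15-fold higher (adjusted p = 7.48e-05, limma), with dlBNST arrays close together. Meis2 was higher by 2.06, Lhx2 by 1.48, Bcl11a by 1.44, Ebf1 by 1.30 and Dlx5 by 1.06. Within the Dlx family Dlx5 and Dlx1 thus differed in opposite directions. Beside Dlx1, the genes called lower were Nr2f1, Nr2f2 and Tox.

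Of 50 tested axon guidance and adhesion genes, 14 were called lower in dlBNST and 4 higher, beside 8.53% and 8.06% of all tested genes, so the higher calls were at the share of all genes. Ntng1 (netrin-G1), an adhesion protein on axons of thalamic and other neurons, read 6.24, 6.99, 6.39 and 6.61 in dlBNST and 8.79, 8.90, 8.98 and 8.74 in vBNST. It was 4.91-fold lower (adjusted p = 1.81e-05). The cadherins Cdh7 and Cdh11 differed by -1.31 and -1.06, the protocadherin Pcdh17 by -0.99 and the semaphorin receptor Nrp1 by -0.87. Plxna2, another semaphorin receptor, was higher by 1.03.

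Markers of neighboring tissue were examined as lists, beside 8.06% of all tested genes called higher and 8.53% lower. Of 25 tested markers of striatal medium spiny neurons and the lateral extended amygdala, 15 were called higher in dlBNST and 1, Tac1, lower, with a median of 0.75. They include Zfp503 (difference 2.25), Pde1b (1.76), Itpr1 (1.21) and the dopamine D2 receptor Drd2 (1.18). Drd2 averaged 3.87 in vBNST and passed the filter through dlBNST. Averaged over the 38 members on the array, the log2 level was 6.82 to 6.94 in dlBNST and 5.96 to 6.10 in vBNST. The adenosine receptor Adora2a, a defining marker of indirect-pathway striatal neurons, did not pass the filter and read 3.53 to 4.08 in dlBNST and 2.89 to 3.26 in vBNST, against a mean of 10.02 in NAcC. The part of adjacent striatum in the dlBNST values was not tested.

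For hypothalamic, preoptic and medial extended amygdala markers, 7 of 16 tested genes were called lower in dlBNST and 2 higher. The shares of all tested genes were 8.53% lower and 8.06% higher, for this and the lists below. Of the 7, Slc17a6, Oxt, Gal, Calcr, Trh and Cyp19a1 were already counted in lists above, as was Lhx2 of the 2. Oxt and Trh averaged under 4 in dlBNST and passed the filter through vBNST, where they were high. The list average over 30 genes was 5.47 to 5.68 in dlBNST and 6.03 to 6.27 in vBNST. The hypothalamic factor Otp was dim on every array, at 1.78 to 2.03 in dlBNST and 1.69 to 2.05 in vBNST. Sim1, of the paraventricular nucleus, read 3.09 to 3.40 in dlBNST and 3.64 to 4.66 in vBNST, without passing the filter. The part of adjacent hypothalamic or preoptic tissue in the vBNST values was not tested. Thalamic and septal markers were lower in 3 of 10 and higher in 1, and the septal factor Zic1 read 2.28 to 2.49 in dlBNST and 2.44 to 2.56 in vBNST. Of the cortical glutamatergic markers 4 of 10 were lower and 2 higher, and Slc17a7, the cortical glutamate transporter VGLUT1, read 3.04 to 3.57 in dlBNST and 3.12 to 3.39 in vBNST. Cholinergic and pallidal markers had 1 call in each direction among 4 tested, and interneuron markers 3 higher and 2 lower among 13.

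Oligodendrocyte and myelin genes were shifted toward dlBNST, with 7 of 23 tested genes called higher, none lower, and a median difference of 0.54. The shares of all tested genes called were 8.06% higher and 8.53% lower. The list average was 7.21 to 7.69 in dlBNST and 6.77 to 7.13 in vBNST, with no overlap. Cldn11, of the myelin sheath, read 12.90, 13.01, 12.88 and 12.67 in dlBNST and 12.35, 12.42, 12.09 and 12.25 in vBNST. Mog was higher by 1.14, but its call was lost in 6 of the 8 fits that left out an array. Among astrocyte markers the intermediate filament Gfap was called higher and 5 of 21 lower. Gfap read 9.43, 9.44, 8.65 and 9.65 in dlBNST against 8.23, 7.66, 7.47 and 8.05 in vBNST (difference 1.44, adjusted p = 0.00267, limma). Agt (angiotensinogen) and Gjb6 (connexin 30) differed by -1.32 and -0.90, so astrocyte genes did not move as a block. The list averages of astrocyte markers overlapped, at 9.23 to 9.36 in dlBNST and 9.21 to 9.45 in vBNST.

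Of all tested genes 8.06% were called higher and 8.53% lower. Of 8 microglia markers C1qa alone was called, higher by 0.59. Of 15 endothelial, mural and meningeal markers, 1 was higher and 1 lower, so these counts were near the share of all genes. The meningeal gene Ptgds read 7.71, 8.30, 8.31 and 6.67 in dlBNST against 5.52, 5.77, 6.06 and 6.53 in vBNST, and was higher by 1.78. Choroid plexus and ependyma markers were called higher in 3 of 7 tested genes and lower in 1, Prlr. The 3 were transthyretin (Ttr), which the choroid plexus secretes, Rarres2 (difference 1.28) and Otx2 (1.17). Ttr read 8.27, 8.24, 6.95 and 10.80 in dlBNST and 6.97, 6.81, 5.05 and 4.48 in vBNST, so the regions overlapped and dlBNST replicate 4 was by far the highest. The choroid markers Folr1, Kl and Cldn2, picked after values were seen, did not pass the filter. They read 2.23 to 3.32 in dlBNST and 2.10 to 3.36 in vBNST. Averaged over 16 markers, the level was 4.60 to 5.04 in dlBNST and 4.36 to 4.62 in vBNST. Ttr lost its call in 5 of the 8 fits without an array.

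Among immediate early genes 4 of 13 were called higher in dlBNST, Egr1, Egr2, Nr4a3 and Homer1. Of all tested genes 8.06% were called higher and 8.53% lower. Egr1 read 11.10, 10.88, 11.03 and 11.21 in dlBNST and 10.02, 10.01, 10.05 and 9.92 in vBNST, a difference of 1.05 with almost no spread (adjusted p = 0.000153, limma). Fos differed by 0.26 and was not called. Of 11 tested monoamine genes 3 were higher, Drd1, Drd2 and the adrenergic receptor Adra2a (0.44). The amine-synthesizing enzyme Ddc was lower by 1.03 and the histamine receptor Hrh1 by 0.88, while 30 of the 41 monoamine genes on the array did not pass the filter.

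The naive differences were then set against rats that had not entered them. In non-dependent rats, 12.5% of 8738 genes were called between dlBNST and vBNST (5.93% higher, 6.53% lower). These calls, 518 and 571, were 236 and 287 without vBNST replicate 4. Of 700 genes called higher in naive rats and tested there, 688 had the same sign and 316 were called higher. Of 731 called lower, 724 had the same sign and 400 were called lower, and none was called in the opposite direction. In dependent rats the 8 arrays gave 1.73% called genes (0.841% higher, 0.887% lower), and without the vBNST array that stood apart 9.20% (4.00% higher, 5.20% lower). With all 8 arrays, 600 of 697 genes higher in naive rats and 659 of 725 lower ones had the same sign, and 65 and 74 were called. With 7 arrays, 655 of 696 and 698 of 719 had the same sign, and 235 and 304 were called. Slc17a6 differed by -5.16 in non-dependent rats, and in dependent rats by -4.63 with 8 arrays and -4.97 with 7. Nmb differed by 4.14 in non-dependent rats and by 4.92 and 4.94 in dependent rats, Arpp21 by 2.81 and then 2.68 and 2.91, and Frem3 by -3.02 and then -2.20 and -1.91, each called. Drd1 differed by 1.56 in non-dependent rats and by 1.70 with 7 dependent arrays, both called, and by 2.23 with 8 arrays, not called (adjusted p = 0.0828, limma).

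**Figure D3:**
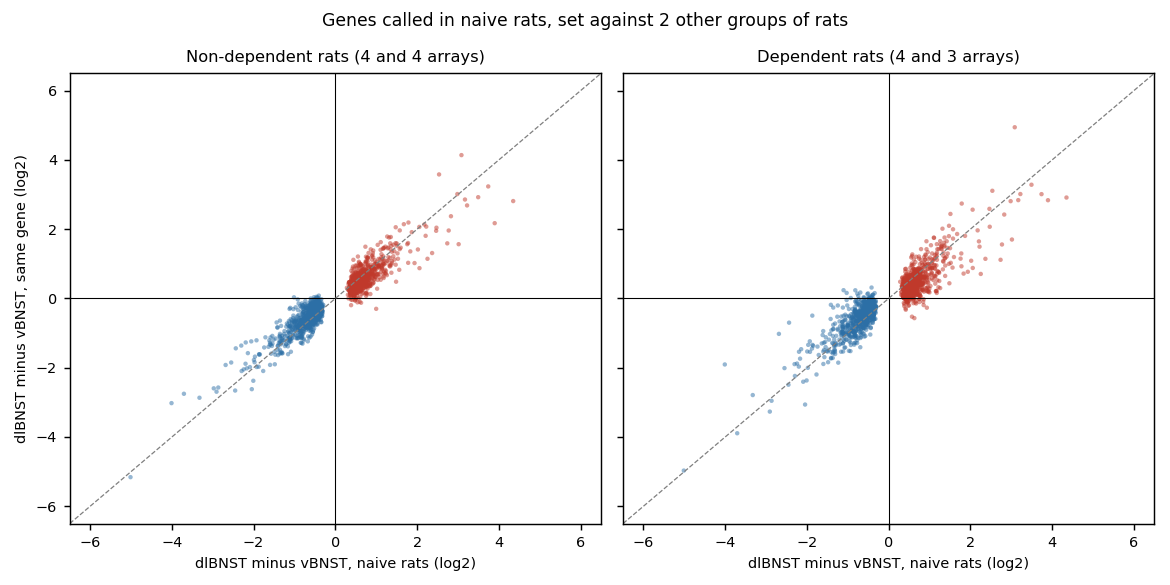
Log2 difference between dlBNST and vBNST of each gene called in naive rats (horizontal axis) against its difference in non-dependent rats (left panel) or dependent rats without vBNST replicate 1 (right panel), with red for higher and blue for lower in naive dlBNST and a dashed line of equality. In non-dependent rats 688 of 700 red and 724 of 731 blue genes lie on the same side of 0.

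Whether the regional difference depended on alcohol history was tested as an interaction over all 24 BNST arrays. No gene was called (0.00%) among 8753 for non-dependent or for dependent rats against naive rats, by limma with or without an intensity trend and robust variance. At an unadjusted p under 0.05 there were 91 genes for non-dependent and 592 for dependent rats, against 83 and 592 with trend and robust variance. The vBNST array that stood apart enters the variance of both contrasts, and without it these counts were 264 and 538. The absence of calls therefore does not show that the regional difference was equal in the groups. The lowest adjusted p for dependent rats was 0.313, and 0.0820 without the vBNST array that stood apart.

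The position of the regions among the 8 naive regions was described gene by gene, by asking on which side of the midpoint between the dlBNST and vBNST means another region lay. Of the 743 genes lower in dlBNST, 89.4% lay on the dlBNST side in NAcC, 82.8% in CeA, 82.6% in NAcSh, 72.5% in BLA, 68.9% in the medial prefrontal cortex (mPFC) and 39.3% in the ventral tegmental area (VTA). Of the 702 genes higher in dlBNST, 71.9% lay on the dlBNST side in CeA, 71.4% in NAcC, 65.2% in NAcSh, 59.3% in mPFC, 50.9% in BLA and 28.5% in VTA. Arpp21 averaged 10.99 in dlBNST and 6.64 in vBNST, beside 13.94 in NAcC, 11.58 in CeA and 3.30 in VTA. Drd1 averaged 7.37 in dlBNST and 4.35 in vBNST, beside 11.46 in NAcC, 10.61 in NAcSh and 2.31 in VTA. Cyp26b1 went with the amygdala, at 9.97 in dlBNST and 6.08 in vBNST, beside 12.33 in BLA, 11.86 in CeA and 5.80 in NAcC.

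Slc17a6 averaged 5.86 in dlBNST and 10.87 in vBNST, beside 12.54 in VTA, 9.43 in BLA and 5.06 in CeA. The genes Prlr, Frem3 and Oxt had their highest mean of the 8 regions in vBNST. For Prlr the next highest region was dlBNST with 6.00, followed by CeA with 4.18, and the other regions averaged 2.98 or less. For Frem3 the next was NAcSh with 4.74, followed by dlBNST with 4.13, whose replicate 2 at 5.90 lay above all NAcSh arrays. For Oxt, dlBNST averaged 2.96 and the remaining regions 2.51 to 3.32.

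**Figure D4:**
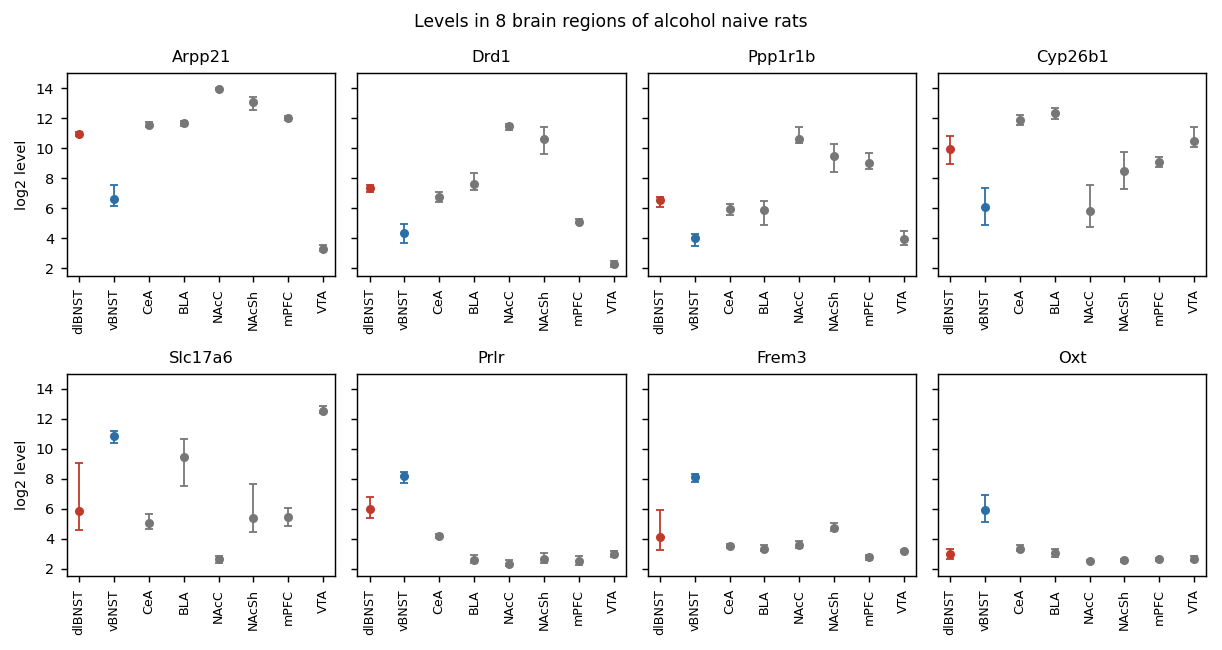
Mean log2 level (vertical axis) of 8 genes in 8 brain regions of naive rats, 4 arrays each, with bars from the lowest to the highest array, dlBNST in red, vBNST in blue and other regions in grey. Arpp21, Drd1 and Ppp1r1b are highest in NAcC, Slc17a6 is highest in VTA at 12.54, and Prlr, Frem3 and Oxt are highest in vBNST.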

How the data were processed

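RNA of microdissected tissue was amplified by in vitro transcription and hybridized to rat whole-genome 3′ expression arrays. The deposited log2 values were made by the authors with GCRMA (version 2.36.0 in R 3.03 in the submitters' processing notes), which corrects background, normalizes by quantiles across arrays and summarizes the probes of a probe set. GCRMA compresses differences of dim genes. Of 31099 probe sets, 20832 had 1 gene in the platform annotation, 436 several and 9831 none. Symbols were updated through gene IDs to RefSeq (20764 matched). Each of 14218 genes was represented by its brightest probe set, by mean level on the 96 arrays.

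Genes with a mean above 4 over the 8 arrays were tested with limma 3.58.1 (lmFit and eBayes, R 4.3.3) and Benjamini-Hochberg adjustment at 0.05. Intervals are 95% intervals of the fit. Both alcohol groups were fitted likewise, and the interactions over 24 arrays. On simulated arrays, 43 of 50 genes raised by 1 log2 unit and 20 of 50 raised by 0.5 were recovered. Of 50 lowered by 1, 40 were recovered, and 9 unchanged genes were called. Smaller differences can thus be missed. Fewer genes were changed there than were called in the data, so these shares may not carry over. No depth applies, and the number of arrays limits the precision. Python 3.11.15 with pandas 2.3.3 and matplotlib 3.10.9 served for summaries and figures.

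The genes named were the 12 per direction with the largest difference among called genes without overlap, and from each of 21 lists up to 6 called members with the smallest adjusted p and up to 3 uncalled members with the highest level. Outside this rule, and chosen after their values were seen, are Crh, Sst, Tac1, Adcyap1, Chga, Scg2, Oprk1, Tacr1, Npr2, Npy5r, Greb1, Esr1, Esr2, Pde1b, Ebf1, Bcl11a, Dlx5, Tox, Kcnq5, Grin2a, Gad2, Slc32a1, Avp, Otp, Sim1, Zic1, Slc17a7, Adora2a, Folr1, Kl, Cldn2 and the genes of the 3 lists in the closing section. The members and lists were chosen with earlier results of these data known. Alternatives were other normalizations, filters, probe set rules, variance models, array sets and leaving out each array.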

Additional observations from a re-analysis of the deposited data

Results flagged for a closer look

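In 13 of 202 groups of 4 arrays, over the genes examined closely, 1 array stood apart from the other 3 by Dixon's test, where chance alone gives about 1 in 20, or 10.1. Of the 13, 7 were in dlBNST replicate 2. It was the highest dlBNST array for Slc17a6 (9.06), Dlx1 (7.58), Adcyap1 (5.07), Cyp19a1 (5.91) and Nr2f2 (10.82), genes higher in vBNST, and the lowest for Ppp1r1b (6.11) and Baiap2 (7.78), genes higher in dlBNST. Thus all 7 values lay toward vBNST. Elsewhere in dlBNST, Homer1 was lowest in replicate 3 at 8.44 and Acat2 lowest in replicate 4 at 7.72. In vBNST replicate 1, Rarres2 (5.44), Acat2 (10.04) and Fdft1 (8.58) were highest, and in vBNST replicate 4 Gria1 was highest at 8.55. The cause was not tested.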

How the results depend on the processing

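Of 94 called genes examined under up to 20 other settings, none changed sign, 69 kept the call in every setting, and the call was lost in 65 of 1848 gene and setting pairs. Of the naive counts of 702 higher and 743 lower genes, the fit to all 24 BNST arrays gave 384 and 427 and a plain t-statistic 445 higher. Leaving out an array gave 410 to 710 higher and 430 to 703 lower. In non-dependent rats the ranges were 236 to 539 and 287 to 674, both lowest without vBNST replicate 4. In dependent rats they were 15 to 348 and 11 to 453, both highest without vBNST replicate 1. With median scaling 633 genes were higher and 812 lower. Gad1, not called in any of these fits, ran from -0.0455 to 0.0216 when an array was left out and Gad2 from -0.2089 to 0.1094, with 0.0924 for Gad2 under array weights. Crh was called with array weights (adjusted p = 0.0118, limma) and over all 32 naive arrays (1.19, adjusted p = 0.0408). The replicate block gave 510 and 541 calls in naive, 396 and 467 in non-dependent and 25 and 16 in dependent rats. Deviations of arrays with the same number correlated at -0.0654, -0.01, -0.024 and -0.0534, and no dlBNST array correlated best with the vBNST array of its own number (the highest of all pairs was 0.391), so the number was not taken to mark a rat. The causes of these shifts were not tested, and genes dim on all arrays could not be tested.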

Other observations

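A list of cholesterol synthesis genes, and those for spines and retinoids below, were assembled after values were seen, so their counts are descriptions. Of 18 tested cholesterol genes, 10 were called lower and 1 higher, with a median of -0.54 against -0.01 over all genes and 8.53% lower and 8.06% higher calls. Acat2, an acetyl-CoA acetyltransferase, read 8.11, 8.18, 8.12 and 7.72 in dlBNST, against 10.04, 9.83, 9.83 and 9.82 in vBNST (difference -1.85 ± 0.12, adjusted p = 1.62e-05, limma). Fdft1, squalene synthase, read 5.52, 6.08, 5.95 and 5.70 in dlBNST and 8.58, 7.47, 7.52 and 7.40 in vBNST. The regions did not overlap in either gene. The sterol carrier Stard4 differed by -1.28, the sterol sensor Insig1 by -1.16, and the isoprenoid enzymes Fdps and Idi1 by -1.09 and -1.06. The regulator Srebf1 differed the other way, by 0.58. Its call was lost without dlBNST replicate 1 or 4 or vBNST replicate 2, and over all 24 BNST arrays (adjusted p = 0.254, limma). In non-dependent rats 10 of 17 tested genes of the list were called lower and 1 higher.

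The 4 called genes with the largest difference and a promoter in the RefSeq table (GRCr8) are shown with the 250 bases before the start, because these genes moved together. Capitals mark CCAAT on either strand (CCAAT or ATTGG). The windows are chr1:50100590-50100839 (plus strand) for Acat2, chr4:8057770-8058019 (minus) for Insig1, chr2:176804817-176805066 (minus) for Fdps and chr17:66547525-66547774 (minus) for Idi1.
Acat2: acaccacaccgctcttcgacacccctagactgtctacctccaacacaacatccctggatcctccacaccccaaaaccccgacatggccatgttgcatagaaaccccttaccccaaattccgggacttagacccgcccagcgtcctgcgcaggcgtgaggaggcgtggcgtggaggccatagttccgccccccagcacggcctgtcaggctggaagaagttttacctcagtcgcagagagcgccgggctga
Insig1: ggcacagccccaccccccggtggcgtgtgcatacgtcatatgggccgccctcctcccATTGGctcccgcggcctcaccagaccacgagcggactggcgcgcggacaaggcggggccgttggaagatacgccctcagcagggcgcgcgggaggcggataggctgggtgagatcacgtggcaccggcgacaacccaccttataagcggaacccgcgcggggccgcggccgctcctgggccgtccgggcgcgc
Fdps: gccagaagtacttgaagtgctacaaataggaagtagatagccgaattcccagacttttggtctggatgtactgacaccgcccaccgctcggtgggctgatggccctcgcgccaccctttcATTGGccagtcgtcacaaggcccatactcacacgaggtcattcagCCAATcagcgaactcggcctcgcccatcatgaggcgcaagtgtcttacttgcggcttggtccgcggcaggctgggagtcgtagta
Idi1: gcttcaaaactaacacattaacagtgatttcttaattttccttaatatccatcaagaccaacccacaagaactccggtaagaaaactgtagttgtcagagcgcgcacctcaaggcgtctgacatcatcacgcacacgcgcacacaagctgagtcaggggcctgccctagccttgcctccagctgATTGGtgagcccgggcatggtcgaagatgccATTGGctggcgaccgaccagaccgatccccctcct
CCAAT stood in 16 of 19 promoters of the list (84.2%), against 34.0% of all 33469 promoters and 35.6% of those of tested genes. Of the 10 genes of the list called lower, 7 had an entry and 6 of these held it, while Acat2 did not. Over all called genes with a promoter entry, CCAAT was in 34.3% of those lower and 35.2% of those higher, near the share of tested genes. Its part in the regional difference was not tested. CCAAT was 1 of 10 motifs searched on both strands and was chosen after values were seen. CACCCC, the core of a sterol element, was in 36.8% of the list's promoters, 21.0% of all and 25.8% of those of tested genes. Its longer forms CACCCCAC (2.32% of all promoters) and TCACCCCA (1.14%), which both contain it, the E-box CACGTG (5.59%), the cAMP element core TGACGT (6.95%) and its full form TGACGTCA (1.59%), the nuclear receptor motif AGGTCA (14.1%), the Meis core TGACAG (15.8%) and the homeodomain core TAATTA (4.86%) were each in 3 or fewer of the 19.

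Genes of dendritic spines were called higher in dlBNST in 11 of 18 tested and lower in none, with a median of 0.80, beside 8.06% of all tested genes called higher. The kinase anchor Akap5 read 9.71, 9.42, 9.51 and 8.39 in dlBNST against 6.11, 7.12, 7.68 and 6.27 in vBNST. The actin regulator Baiap2 read 8.44, 7.78, 8.42 and 8.42 against 5.77, 6.64, 6.44 and 7.11, and neither gene overlapped. In non-dependent rats 9 of the 18 were called higher. Of 8 tested retinoid genes, 4 were called higher and 1 lower, beside 8.06% and 8.53% of all tested genes. The 4 were Cyp26b1, Ttr and the retinoid binding proteins Crabp1 (1.11) and Rbp4 (0.90). Ttr overlapped between the regions and lost its call in most fits that left out an array. Crabp1 lost its call over all 24 BNST arrays and with a plain t-statistic, and Rbp4 over all 32 naive arrays. Aldh1a1, which makes retinoic acid, read 6.10, 6.18, 5.01 and 5.95 in dlBNST against 8.88, 7.18, 8.14 and 7.81 in vBNST, a difference opposite to that of the degrading enzyme.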
